A study of Homo sapiens with 15 samples.

Results

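The genes described here are 39 human genes of the endoplasmic reticulum (ER) folding system, chosen by symbol and matched by Ensembl identifier: the sensor ERN1 (IRE1), the transcription factors XBP1, ATF6 and ATF6B, the ER chaperones, the disulfide and proline isomerases, the genes of ER-associated degradation (ERAD), and members of the translocon and of ER export. They are 39 of the 60670 genes counted, and 38 of them passed the filter on low counts and were tested. DERL3, a derlin of the ERAD channel, had 0 reads in all 15 libraries and was not tested.

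The counts come from stranded mRNA sequencing of HT-1080, an established human fibrosarcoma line, in 15 libraries that fall into 5 groups of 3. One group was of cycling cells in the vehicle DMSO for 6 h. The other 4 were of cells made senescent by 6 days of expression of dnTRF2, a dominant negative form of the telomere-binding protein TRF2 that uncaps telomeres, and then kept in DMSO for 6 h or 24 h, or in GNF-7 at 1 uM for 6 h or 24 h. GNF-7 is a tyrosine kinase inhibitor that the series' title links to activation of GCN2, a kinase of the translation factor eIF2. All 5 groups are of the same line, and the promoter that drives dnTRF2 and the number of clones are not given in the sources used here. The titles number the replicates as biological and say nothing more of separate cultures, so p-values measure the spread between these samples. Cycling cells in GNF-7 were not analysed here, so what the compound does without senescence cannot be told from these groups.

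In the unfolded protein response, proteins of the ER membrane sense misfolded protein and signal to the nucleus. IRE1 splices the XBP1 messenger RNA into a form that encodes an active factor, ATF6 and ATF6B travel to the Golgi and are cut there to free a transcription factor, and PERK phosphorylates eIF2, which slows translation while favouring that of ATF4. XBP1 and cleaved ATF6 drive chaperone and ERAD genes, the best known of which is HSPA5 (BiP), the HSP70 chaperone of the ER that also holds the sensors inactive. HERPUD1 is known as a target of both the ER arms and ATF4. Gene counts do not separate spliced from unspliced XBP1, and they do not show cleavage of ATF6.

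The promoters were searched for exact matches to sites through which these factors are known to act. They are printed for members that later moved in opposite directions. In the RefSeq promoter table (GRCh38.p14), 35 of the 39 members had an entry, and the 250 bases before each start were searched on both strands for the ER stress response element, ERSE (CCAAT, then CCACG after 9 bases), for ERSE-II (ATTGG, then CCACG after 1 base), for the core of the UPR element, UPRE (TGACGTGG), and for the ATF4 composite site, CARE (TGATGNAA). ERSE or ERSE-II was present in 10 of the 35 promoters (28.57%) and in 44 of all 35116 promoters (0.13%). Members were counted once per symbol, and the 35116 are all promoter entries. The members were chosen as genes of the ER folding system, so these shares are a description and not a test. ERSE was in those of HSPA5, XBP1, CALR, CANX, HSP90B1, CRELD2 and ERO1B, and ERSE-II in those of HERPUD1, HYOU1 and SDF2L1. The UPRE core was in 2 members (5.71%, against 0.61% of all promoters), DNAJC10 and HYOU1, and in HYOU1 it overlapped an ERSE-II. CARE was in HERPUD1 alone among members (2.86%, against 3.14% of all promoters). In the windows below, read along each gene's strand, capitals mark the ERSE in HSPA5, XBP1 and CALR, the CARE and then the ERSE-II in HERPUD1, and the ERSE-II in SDF2L1. They lie at chr9:125241373-125241463 (minus strand) for HSPA5, chr22:28800598-28800689 (minus) for XBP1, chr19:12938364-12938419 (plus) for CALR, chr16:56931952-56932047 (plus) for HERPUD1 and chr22:21642072-21642152 (plus) for SDF2L1, in the region just before each gene.
HSPA5: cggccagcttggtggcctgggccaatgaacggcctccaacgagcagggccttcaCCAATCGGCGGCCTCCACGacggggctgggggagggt
XBP1: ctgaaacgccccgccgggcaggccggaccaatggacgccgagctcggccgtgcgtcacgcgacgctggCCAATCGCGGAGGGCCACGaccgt
CALR: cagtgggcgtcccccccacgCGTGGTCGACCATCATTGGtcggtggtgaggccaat
HERPUD1: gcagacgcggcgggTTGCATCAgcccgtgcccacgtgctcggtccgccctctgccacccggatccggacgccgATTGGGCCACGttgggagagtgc
SDF2L1: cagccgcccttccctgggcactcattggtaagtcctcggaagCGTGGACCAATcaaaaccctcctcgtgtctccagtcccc
Counted from the start of transcription, the ERSE ran from -66 to -48 in HSPA5 and from -52 to -34 in XBP1. In CALR it lay on the other strand, from -225 to -207. A match is a run of letters and not evidence of binding. Only exact matches within the 250 bases were counted, so a member without one may still hold a variant or a more distant site. In GENCODE 29 the genes themselves lie at chr9:125234853-125241330 for HSPA5, chr22:28794555-28800597 for XBP1, chr19:12938578-12944489 for CALR, chr16:56932048-56944863 for HERPUD1 and chr22:21642261-21644298 for SDF2L1, and the XBP1 window also falls in an exon of the long noncoding RNA Z93930.2. ERN1 lies at chr17:64039142-64130819 on the minus strand and MANF at chr3:51385047-51389397 on the plus strand.

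Library totals ran from 25991007 to 32323393 counts. The mesenchymal markers VIM (3363 to 4276 counts per 1000000 counts of the library, CPM, unscaled) and CD44 (953 to 1650) were high in every library, THY1 had no read, and the epithelial, blood and endothelial markers examined reached at most 1.05. TERF2, which encodes TRF2, was higher in senescent than in cycling DMSO cells by 2.30 on the log2 scale (standard error 0.04, adjusted p = 1.79e-48 in edgeR), as the dnTRF2 label requires. Mitochondrially encoded genes took 3.75 to 5.01% of counts in cycling cells, 11.2 to 12.4% and 15.1 to 18.7% in senescent DMSO cells at 6 h and 24 h, and 13.2 to 15.3% and 22.6 to 24.1% in GNF-7 at these times. The 39 genes together took 1.37 to 1.41% of counts in cycling cells, 1.26 to 1.35% in senescent DMSO cells at 6 h, 1.11 to 1.19% in GNF-7 at 6 h, 1.19 to 1.34% in DMSO at 24 h and 0.913 to 0.973% in GNF-7 at 24 h. The libraries are bulk RNA, so a change in RNA per cell and a change in the share of cells that carry it cannot be told apart.

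On a per-length scale (FPKM, here the scaled CPM divided by the kilobases of exon), CALR, which encodes the calcium-binding lectin chaperone calreticulin, was the most abundant member in all 5 groups. Its level was 913.5 ± 16.9 FPKM (SD, n = 3) in cycling cells, 773.2 ± 35.4 in senescent DMSO cells at 6 h and 377.9 ± 6.93 in GNF-7 at 24 h. HSPA5 had rank 3 in cycling cells, at 364.5 ± 8.48 FPKM, and rank 2 in GNF-7 at 24 h, at 328.8 ± 20.6 FPKM. HSP90B1, the ER HSP90 chaperone GRP94, went from rank 2 (441.4 ± 8.09 FPKM in cycling cells) to rank 6 (148.7 ± 9.14 in GNF-7 at 24 h). XBP1 went from rank 21 of 39 in senescent DMSO cells at 6 h (19.2 ± 0.57 FPKM) to rank 12 in GNF-7 at 6 h (42.7 ± 1.06 FPKM). HERPUD1, by the same comparison, went from rank 25 (14.2 ± 0.28 FPKM) to rank 17 (27.2 ± 0.57 FPKM). ERN1 was low throughout, between 0.769 ± 0.0112 FPKM in cycling cells and 3.43 ± 0.106 in GNF-7 at 6 h. FKBP2, an ER proline isomerase, was lower still, at 0.445 to 0.951 FPKM over the group means. The values that follow are CPM scaled with edgeR's TMM factors, which compare a gene between libraries and not 1 gene with another.

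Senescence changed the members in both directions. At an edgeR adjusted p under 0.05, the threshold for every call here, 34 of 38 members differed between senescent and cycling DMSO cells, against 70.0% of all 18563 genes tested. Of these, 16 were higher (35.6% of all genes were called higher) and 18 lower (34.4%). With total-count scaling, and also among genes with a mean of at least 5 CPM, 16 were higher and 14 lower. The CPM of the 2 groups did not overlap for 34 of the 38, against 71.5% of all genes. The members' median log2 fold change was -0.08, but 0.05 when libraries were scaled by total counts. The median of all genes was 0.06 and 0.20 on these scales. All genes include many of low level. The 11234 genes with a mean of at least 5 CPM had a median of -0.15 in the main fit, and 81.99% of them were called when fitted alone. By role, 8 of the 11 HSP70/HSP90 chaperones and partners fell and 3 rose (median log2 fold change -0.45). Of the 10 lectins, isomerases and oxidoreductases, 6 fell and 4 rose (median -0.31). Of the 9 ERAD genes tested, 5 rose, 1 fell and 3 did not pass (median 0.14).

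The 4 sensors and factors went in different directions with senescence. XBP1 was at 87.2, 98.2 and 95.4 CPM in the cycling libraries and at 60.1, 57.3 and 57.0 CPM in the senescent DMSO libraries at 6 h. Every senescent library was below every cycling one, a log2 fold change of -0.69 (standard error 0.05, adjusted p = 9.55e-21 in edgeR). ERN1 was at 8.37, 8.47 and 8.23 CPM in cycling and at 15.7, 16.6 and 16.0 CPM in senescent cells. The groups were apart in the other direction, and ERN1 was higher by 0.95 on the log2 scale (standard error 0.08, adjusted p = 4.79e-16 in edgeR). ATF6 stood at 122, 125 and 127 CPM in cycling and at 107, 103 and 103 CPM in senescent cells, lower in all 3, with a log2 fold change of -0.25 (edgeR adjusted p = 2.94e-06). Its paralogue ATF6B stood at 83.2, 89.0 and 84.2 CPM against 126, 114 and 112 CPM, higher in all 3, with a log2 fold change of 0.46 (edgeR adjusted p = 2.57e-14). ATF6B shares 360 exon bases with TNXB and another gene on the same strand in GENCODE 29, so part of its reads may be assigned elsewhere.

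HSPA5 was at 1386, 1445 and 1442 CPM in cycling and at 1082, 999.6 and 1057 CPM in senescent cells. All 3 senescent libraries were lower, by a log2 fold change of -0.45 (standard error 0.04, adjusted p = 3.24e-10 in edgeR). The largest fall was that of SDF2L1, a partner of the ER J-domain proteins, from 29.3, 27.4 and 27.6 CPM to 13.7, 12.4 and 13.0 CPM. Its senescent levels were all under 50% of the lowest cycling one, and its log2 fold change was -1.11 (standard error 0.09, adjusted p = 4.84e-17 in edgeR). PDIA4, a disulfide isomerase, followed with 446, 434 and 444 CPM in cycling and 255, 233 and 246 CPM in senescent cells, a log2 fold change of -0.85 (standard error 0.04, adjusted p = 9.71e-27 in edgeR). The largest rise was that of SIL1, the nucleotide exchange factor of HSPA5, from 25.1, 27.9 and 26.8 CPM to 54.1, 52.3 and 50.0 CPM. That rise was 0.97 on the log2 scale (standard error 0.06, adjusted p = 7.9e-23 in edgeR), and HYOU1, the other exchange factor of HSPA5, went the other way (log2 fold change -0.54). DNAJB9, a J-domain co-chaperone that hands HSPA5 to IRE1, rose by 0.90. OS9, a lectin that passes misfolded glycoproteins to the ERAD ligase, rose by 0.88, from 164 to 170 CPM in cycling to 298 to 310 CPM in senescent cells. The ligase SYVN1 and its adaptor SEL1L also rose, with log2 fold changes of 0.46 and 0.38. HERPUD1 moved little, from 83.3, 84.7 and 87.3 CPM to 75.0, 72.3 and 72.8 CPM, and its call (log2 fold change -0.21, edgeR adjusted p = 6.45e-05) was lost when libraries were scaled by total counts (-0.08, edgeR adjusted p = 0.132).

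**Figure D1:**
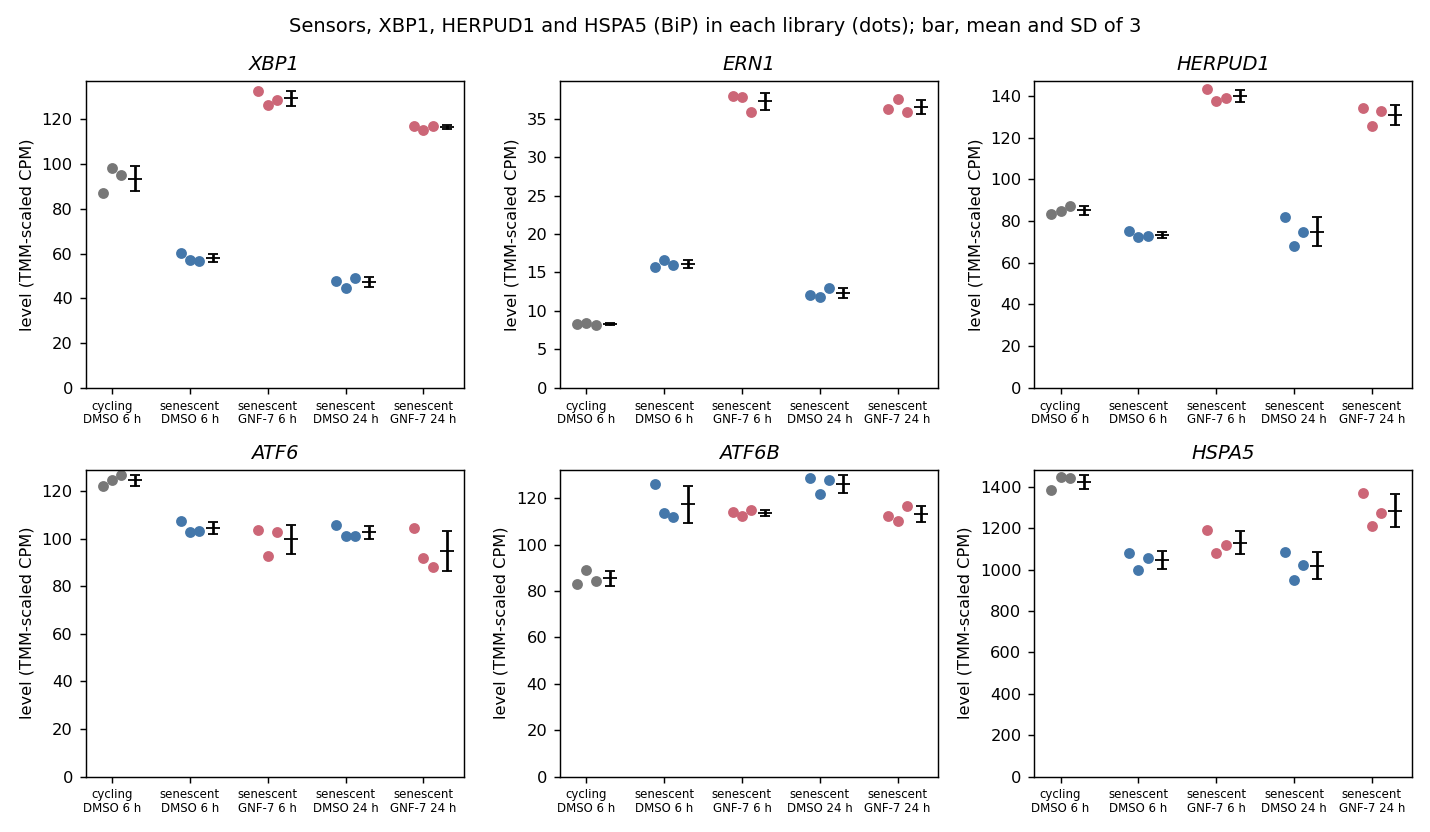
TMM-scaled CPM (vertical axes, from 0) of XBP1, ERN1, HERPUD1, ATF6, ATF6B and HSPA5 in the 15 libraries, by group (horizontal axes); dots are libraries and bars the mean and SD of 3. XBP1 sits at 57.0 to 60.1 CPM in senescent DMSO libraries at 6 h and at 127 to 133 in GNF-7 at 6 h, above the cycling libraries, while ATF6 and ATF6B in GNF-7 lie close to or among the DMSO libraries.

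GNF-7 raised a few members at 6 h and lowered most of the others. XBP1, ERN1 and HERPUD1 rose about as far as MANF and EDEM3 fell, and the chaperones and isomerases that XBP1 and ATF6 are known to drive were mostly lower. Of 38 members, 29 differed between GNF-7 and DMSO in senescent cells at 6 h, against 39.3% of all genes tested. Of the 29, 4 were higher (17.9% of all genes were called higher) and 25 were lower (21.4% of all genes). The groups did not overlap for 28 of the 38 (47.7% of all genes). The members' median log2 fold change was -0.18, and that of all genes 0.01. Genes with a mean of at least 5 CPM had a median of -0.055 in the main fit, and 53.78% of them were called when fitted alone. In that separate fit, which leaves out FKBP2, 5 members were higher and 22 lower. The senescence and the 6 h GNF-7 comparisons share the senescent DMSO libraries at 6 h, so their values are not independent.

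XBP1 was at 133, 127 and 129 CPM in GNF-7 at 6 h, against the 57.0 to 60.1 CPM of the DMSO libraries given above. All GNF-7 libraries were also above the 98.2 CPM of the highest cycling library. The log2 fold change over DMSO was 1.15 (standard error 0.05, adjusted p = 4.65e-31 in edgeR), or 2.23-fold. ERN1 reached 37.95, 37.8 and 35.9 CPM, again with no overlap, a log2 fold change of 1.21 (standard error 0.07, adjusted p = 8.6e-23 in edgeR). HERPUD1, an ER membrane protein that organises the ERAD ligase, was at 143, 138 and 139 CPM, all above the 75.0 CPM of the highest DMSO library. Its log2 fold change was 0.93 (standard error 0.05, adjusted p = 9.47e-26 in edgeR). ATF6 in GNF-7 was at 104, 92.6 and 103 CPM and overlapped DMSO, with a log2 fold change of -0.07 (95% interval -0.16 to 0.03, edgeR adjusted p = 0.272). ATF6B was at 114, 112 and 115 CPM and overlapped too, at -0.04 (95% interval -0.13 to 0.04, edgeR adjusted p = 0.443). The rise among the 4 sensors and factors was thus in XBP1 and ERN1, and the intervals of ATF6 and ATF6B hold no change of the size seen in those genes.

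Among the HSP70/HSP90 chaperones and partners, 8 of 11 fell at 6 h, 1 rose and 2 did not pass (median log2 fold change -0.33). The riser was HSPA5, at 1190, 1081 and 1118 CPM against 1082, 999.6 and 1057 in DMSO. These groups overlapped, and the log2 fold change of 0.11 (standard error 0.04, adjusted p = 0.0477 in edgeR) lost its call without replicate 2 of DMSO at 6 h (0.08, edgeR adjusted p = 0.218), and without DMSO replicate 3 or GNF-7 replicate 1 or 3. With no filter on low counts the HSPA5 call was lost too (0.09, edgeR adjusted p = 0.0519). MANF, a small secreted ER protein that binds HSPA5, fell furthest, from 76.3, 70.2 and 75.7 CPM to 31.8, 32.3 and 34.2 CPM. Every GNF-7 level was under 50% of the lowest DMSO one, and the log2 fold change was -1.18 (standard error 0.05, adjusted p = 2.25e-28 in edgeR). SDF2L1 went from 12.4 to 13.7 CPM down to 7.71, 7.37 and 9.51 CPM, a log2 fold change of -0.66 (standard error 0.10, adjusted p = 1.66e-07 in edgeR). CRELD2, an ER protein often induced with MANF, and DNAJC3, a co-chaperone known also as the PERK inhibitor p58IPK, fell by 0.59 and 0.56 on the log2 scale. HSP90B1 fell by 0.33, from 1270, 1209 and 1319 CPM down to 1050, 979.8 and 1001 CPM.

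Of the 10 lectins, isomerases and oxidoreductases, 8 fell at 6 h and none rose (median log2 fold change -0.25). The falls were small, from -0.15 for the membrane lectin calnexin (CANX) to -0.39 for PDIA4, which was at 194, 178 and 189 CPM in GNF-7, below each DMSO library. CALR was at 2182, 1994 and 2119 CPM in DMSO and at 1651, 1578 and 1626 CPM in GNF-7. Its groups were apart, with a log2 fold change of -0.38 (standard error 0.04, adjusted p = 1.71e-13 in edgeR). The 2 that did not pass were ERO1B, an oxidase that recharges the disulfide isomerases (0.06, 95% interval -0.13 to 0.25), and FKBP2 (0.23, 95% interval -0.31 to 0.78). ERO1B was at 13.3, 13.5 and 15.02 CPM in DMSO and at 15.1, 15.1 and 13.5 CPM in GNF-7, and the groups overlapped.

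ERAD genes split at 6 h. Beside HERPUD1, which rose, 5 of the 9 tested fell and 3 did not pass (median log2 fold change -0.12). EDEM3, which trims mannose from misfolded glycoproteins, went from 89.4, 88.0 and 93.0 CPM in DMSO to 45.8, 47.8 and 46.3 CPM in GNF-7. All 3 GNF-7 libraries were well below every DMSO library, at a log2 fold change of -0.95 (standard error 0.05, adjusted p = 1.27e-25 in edgeR). Its relatives moved less, EDEM2 by -0.30 and EDEM1 by -0.14. The core ligase complex did not pass, with SYVN1 at -0.04 (95% interval -0.13 to 0.06) and SEL1L at -0.09 (95% interval -0.18 to -0.001, edgeR adjusted p = 0.102). The channel protein DERL2 fell by 0.37, while DERL1 did not pass (0.11, 95% interval 0.01 to 0.21, edgeR adjusted p = 0.0739). All 4 translocon and export genes fell (median -0.25), the furthest SEC24D, a cargo adaptor of the COPII coat, by 0.66 (standard error 0.05, adjusted p = 9.17e-18 in edgeR).

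**Figure D2:**
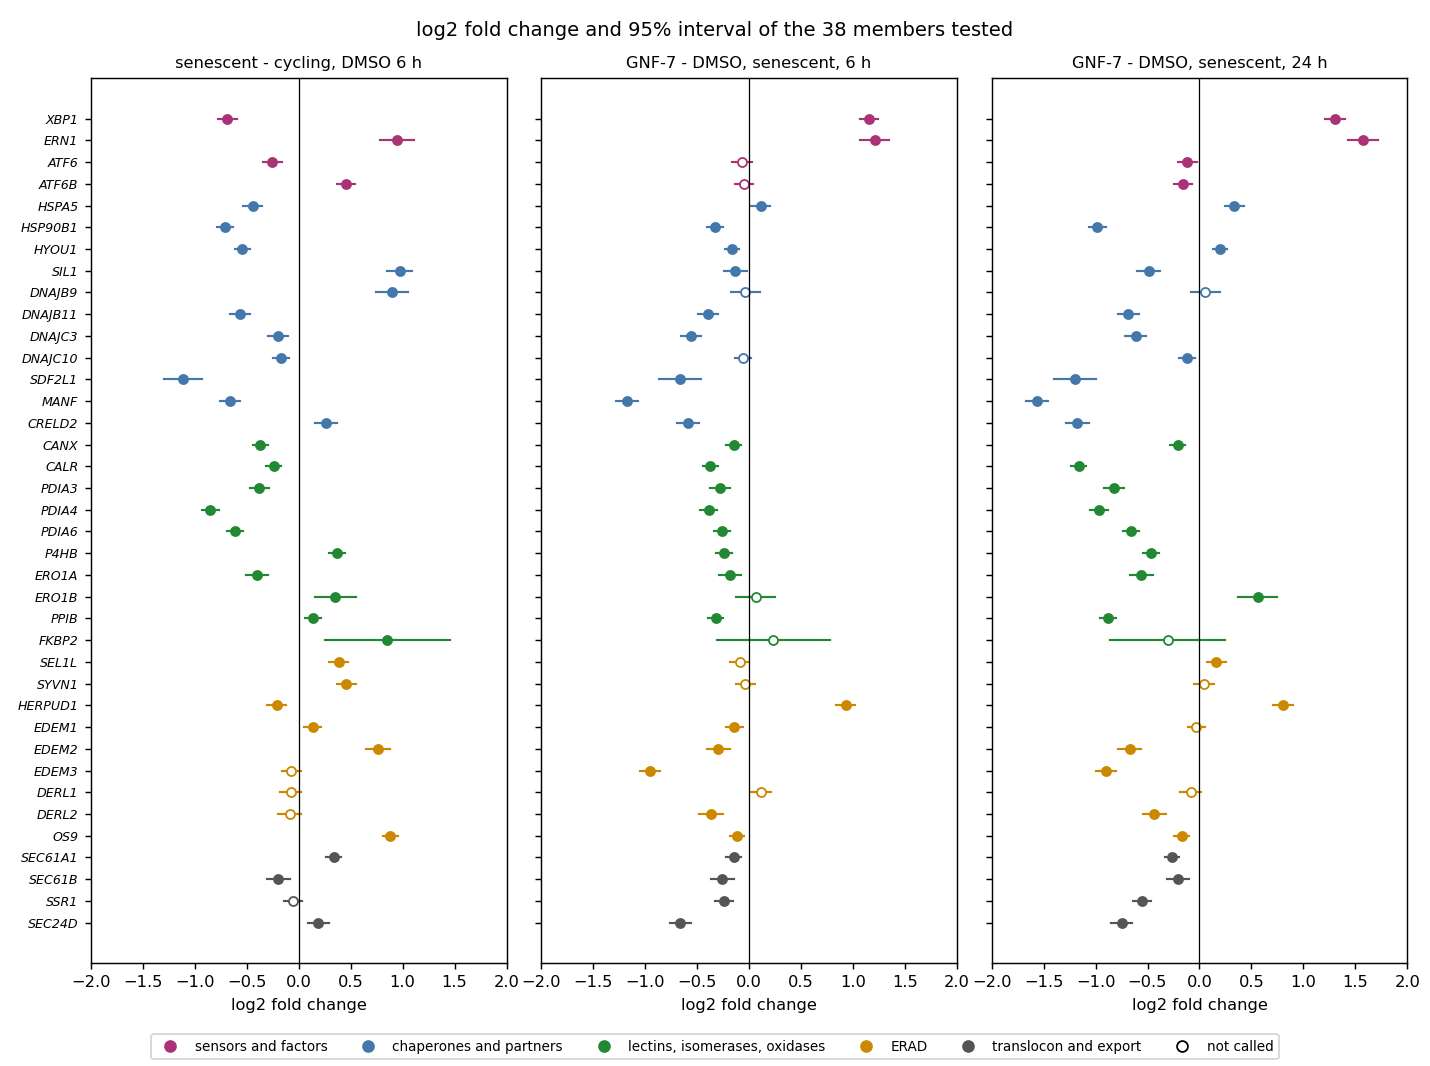
Log2 fold change (horizontal axis) with its 95% interval for the 38 members tested (vertical axis, ordered and coloured by role), in senescent against cycling DMSO cells and in GNF-7 against DMSO at 6 h and 24 h; open circles did not pass. XBP1, ERN1 and HERPUD1 lie right of 0 in both GNF-7 panels, at 0.80 to 1.58, and MANF lies furthest left, at -1.18 and -1.57.

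At 24 h members again went both ways. XBP1, ERN1, HERPUD1, HSPA5, HYOU1, ERO1B and SEL1L were higher in GNF-7, and CALR, HSP90B1, MANF, SDF2L1 and CRELD2 had fallen to about 50% of DMSO or less. Of 38 members, 33 differed between GNF-7 and DMSO at 24 h (58.9% of all genes tested), 7 higher (29.3% of all genes) and 26 lower (29.7%). The groups did not overlap for 32 of the 38 (63.2% of all genes). The median log2 fold change was -0.37, against 0.04 for all genes. Genes with a mean of at least 5 CPM had a median of -0.09 in the main fit, and 72.48% of them were called when fitted alone. In that separate fit 9 members were higher and 21 lower. Mitochondrial genes, whose share moved with the groups, were also kept out of the scaling. The counts were then 7 higher and 26 lower at 24 h, as in the main fit, and 4 and 24 at 6 h.

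XBP1 was at 47.6, 44.9 and 49.1 CPM in DMSO at 24 h and at 117, 116 and 117 CPM in GNF-7. The groups were far apart, with a log2 fold change of 1.31 (standard error 0.05, adjusted p = 9.54e-34 in edgeR). ERN1 was at 12.03, 11.8 and 13.0 CPM in DMSO and at 36.2, 37.5 and 35.8 CPM in GNF-7, a log2 fold change of 1.58 (standard error 0.07, adjusted p = 3.82e-28 in edgeR) or 2.98-fold. HERPUD1 was at 82.0, 68.0 and 74.6 CPM in DMSO and at 134, 126 and 133 CPM in GNF-7, a log2 fold change of 0.80 (standard error 0.05, adjusted p = 2.83e-23 in edgeR). The GNF-7 calls of XBP1, ERN1, HERPUD1 and MANF held at both times in each of the 15 alternative analyses run. ATF6 was at 106, 101 and 101 CPM in DMSO and at 104, 91.8 and 88.1 CPM in GNF-7. These overlapped, and its call (log2 fold change -0.12, edgeR adjusted p = 0.0314) was lost without GNF-7 replicate 3 (-0.07, edgeR adjusted p = 0.268), GNF-7 replicate 2 or DMSO replicate 1. The ATF6 call was also lost with total-count scaling (-0.09, edgeR adjusted p = 0.117) and among genes with a mean of at least 5 CPM (-0.015, edgeR adjusted p = 0.777). ATF6B was at 129, 122 and 128 CPM in DMSO and at 112, 110 and 117 CPM in GNF-7, lower in all 3, with a log2 fold change of -0.16 (edgeR adjusted p = 0.00133) that did not pass among genes with a mean of at least 5 CPM (-0.06, edgeR adjusted p = 0.224).

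HSPA5 at 24 h was at 1083, 951.7 and 1021 CPM in DMSO and at 1371, 1211 and 1273 CPM in GNF-7, without overlap. Its log2 fold change was 0.34 (standard error 0.04, adjusted p = 1.4e-07 in edgeR), or 1.26-fold, and all 3 GNF-7 libraries stayed below 1386 CPM, the lowest cycling library. HYOU1, the large ER chaperone that exchanges its nucleotide, was lower in GNF-7 at 6 h (-0.16) and higher at 24 h (0.20, standard error 0.04, adjusted p = 1.77e-06 in edgeR). SIL1, which does the same work, fell at 24 h by 0.49, so the exchange factors of HSPA5 again parted. HSP90B1 was at 1454, 1323 and 1359 CPM in DMSO and at 747.7, 677.0 and 670.2 CPM in GNF-7. All 3 GNF-7 libraries were far below DMSO, with a log2 fold change of -0.98 (standard error 0.04, adjusted p = 7.43e-28 in edgeR), while HSPA5 rose.

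MANF fell furthest again, from 84.7, 76.6 and 85.4 CPM to 28.1, 26.1 and 29.02 CPM, a log2 fold change of -1.57 (standard error 0.05, adjusted p = 6.3e-35 in edgeR). SDF2L1 went from 15.6, 16.1 and 16.2 CPM to 6.51, 6.07 and 8.30 CPM, a log2 fold change of -1.20 (standard error 0.10, adjusted p = 4.63e-16 in edgeR). CRELD2 went from 68.9 to 81.1 CPM down to 32.3 to 33.8 CPM, a log2 fold change of -1.18 (standard error 0.06, adjusted p = 6.96e-28 in edgeR). DNAJB9 stayed near DMSO, at 0.06 (95% interval -0.08 to 0.20), having been raised by senescence. In all, 8 of the 11 chaperones and partners fell and 2 rose at 24 h (median -0.62).

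CALR went from 2440, 2149 and 2293 CPM in DMSO to 1040, 1004 and 1032 CPM in GNF-7 at 24 h. All GNF-7 libraries were under 50% of the lowest DMSO library, and the log2 fold change was -1.16 (standard error 0.04, adjusted p = 5.98e-36 in edgeR). Its membrane-bound relative CANX fell by only 0.21. PDIA4 went from 234 to 268 CPM down to 125 to 133 CPM, a log2 fold change of -0.97, and PDIA3, the isomerase that works with both lectins, fell by 0.82. PPIB, the proline isomerase cyclophilin B, fell by 0.88. The oxidases parted: ERO1A went from 341, 295 and 320 CPM to 232, 208 and 210 CPM (log2 fold change -0.56), while ERO1B went from 12.2, 10.2 and 14.1 CPM to 17.5, 17.5 and 18.7 CPM (0.56, standard error 0.10, adjusted p = 7.17e-07 in edgeR). Of the 10 genes of this role, 8 fell and 1 rose (median -0.61).

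Among ERAD genes at 24 h, HERPUD1 and SEL1L were higher in GNF-7 than in DMSO, 4 were lower and 3 did not pass (median log2 fold change -0.08). SEL1L averaged 185 CPM in GNF-7 at 6 h and 184.9 CPM at 24 h. In DMSO it went from 197.1 to 165.1 CPM between these times (log2 fold change -0.255, edgeR adjusted p = 2.51e-05). EDEM3 was at 86.7, 81.8 and 82.3 CPM in DMSO and at 46.2, 44.1 and 44.1 CPM in GNF-7. Its fall of 0.90 (standard error 0.05, adjusted p = 6.28e-25 in edgeR) was about that of 6 h, while EDEM2 had fallen further, by 0.67. EDEM1 was near DMSO at -0.03 (95% interval -0.11 to 0.05), as was SYVN1 at 0.05 (95% interval -0.05 to 0.14). All 4 translocon and export genes fell (median -0.41), SEC24D by 0.75 and SSR1, a subunit of the translocon-associated TRAP complex, by 0.56.

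**Figure D3:**
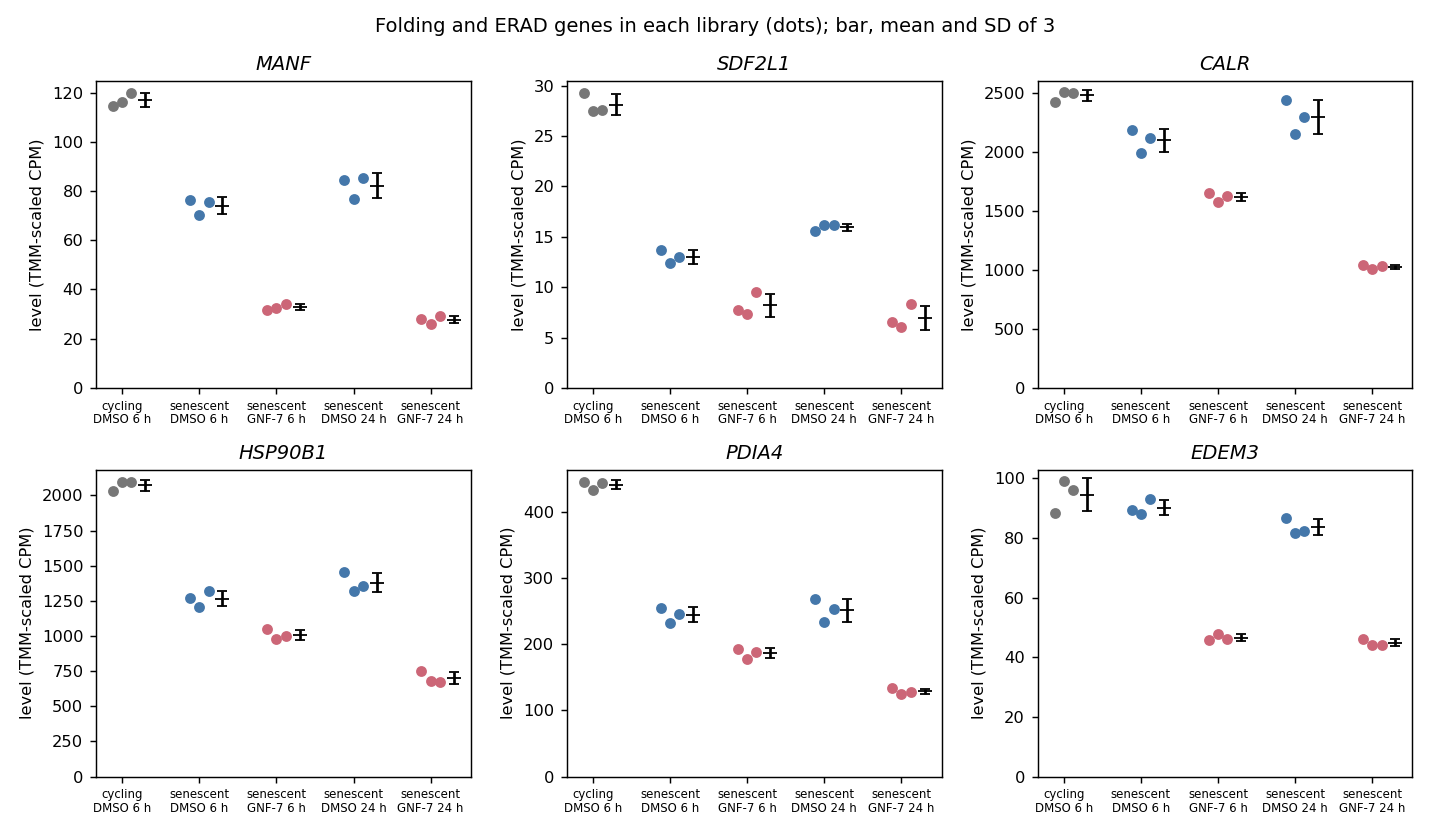
TMM-scaled CPM (vertical axes, from 0) of MANF, SDF2L1, CALR, HSP90B1, PDIA4 and EDEM3 in the 15 libraries, by group (horizontal axes); dots are libraries and bars the mean and SD of 3. In all 6 panels the GNF-7 libraries lie below the DMSO libraries of their time, and CALR, at 1578 to 1651 CPM at 6 h, is at 1004 to 1040 CPM at 24 h.

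Whether the effect of GNF-7 depended on time was tested as an interaction of compound and time. The interaction passed for 21 of 38 members (30.8% of all genes tested), of which 5 were more positive at 24 h (12.8% of all genes) and 16 more negative (18.0%). Among genes with a mean of at least 5 CPM, fitted alone, it passed for 45.58%. In that separate fit 7 members were more positive at 24 h and 15 more negative. CALR had the largest, -0.79 (standard error 0.05, adjusted p = 6.61e-20 in edgeR), followed by HSP90B1 at -0.66 (standard error 0.05, adjusted p = 1.88e-14 in edgeR). The 5 more positive at 24 h were ERO1B at 0.50, ERN1 at 0.37, HYOU1 at 0.36, SEL1L at 0.25 and HSPA5 at 0.22. ERN1 averaged 37.22 CPM at 6 h and 36.54 CPM at 24 h in GNF-7, and 16.1 and 12.27 CPM in DMSO. SEL1L too was nearly level in GNF-7 on this TMM scale and lower in DMSO at 24 h. GNF-7 at 24 h against 6 h was not tested. The interaction did not pass for XBP1 (0.15, 95% interval 0.02 to 0.28, edgeR adjusted p = 0.0699), though it did with total-count scaling (0.17, edgeR adjusted p = 0.0463) and among genes with a mean of at least 5 CPM (0.20, edgeR adjusted p = 0.00783). HERPUD1 (-0.13, 95% interval -0.26 to 0.00) and EDEM3 (0.05, 95% interval -0.09 to 0.19) did not pass either. By role, it was more negative at 24 h for 6 of the 11 chaperones and partners and for 7 of the 10 lectins, isomerases and oxidoreductases. Without replicate 2 of DMSO at 24 h, HERPUD1 passed as well (-0.20, edgeR adjusted p = 0.0154).

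In DMSO alone, the members went both ways with time. Between 24 h and 6 h in senescent DMSO cells, 18 of 38 members differed (18.5% of all genes tested), 10 higher (9.26% of all genes) and 8 lower (9.29%), and the groups did not overlap for 19 (32.9% of all genes). Among genes with a mean of at least 5 CPM, fitted alone, 31.77% were called. In that separate fit 14 members were higher and 8 lower. ERN1 and XBP1 were lower at 24 h, with log2 fold changes of -0.39 and -0.30 (edgeR adjusted p = 0.000101 and 2.56e-06), so the DMSO level that GNF-7 was compared with was lower at 24 h. DNAJC3 was also lower, from 83.6, 87.2 and 81.6 CPM at 6 h to 69.8, 64.9 and 64.5 CPM at 24 h, a log2 fold change of -0.34 (standard error 0.05, adjusted p = 2.21e-07 in edgeR). SDF2L1 (0.30, standard error 0.09, adjusted p = 0.0203 in edgeR) and ERO1A (0.29, standard error 0.05, adjusted p = 0.000148 in edgeR) rose furthest. ERO1A went from 272.9, 244.8 and 263.1 CPM at 6 h to the 341, 295 and 320 CPM given above, without overlap. The SDF2L1 call was lost with total-count scaling (0.18, edgeR adjusted p = 0.155), without replicate 2 of DMSO at 6 h (0.26, edgeR adjusted p = 0.0996) or replicate 3 (0.29, edgeR adjusted p = 0.0598), and without replicate 2 of DMSO at 24 h (0.29, edgeR adjusted p = 0.0539) or replicate 3 (0.29, edgeR adjusted p = 0.066). With total-count scaling the members split into 2 higher and 16 lower, and of all calls 12.49% were higher in place of 49.93%, so the directions of this comparison depend on the scaling.

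The contrast of XBP1 and HERPUD1 with the main chaperone can be read without any scaling, as reads per HSPA5 read of the same library. XBP1 reads were 5.39 to 5.74% of HSPA5 reads in senescent DMSO cells at 6 h and 11.2 to 11.7% in GNF-7 at 6 h. At 24 h they were 4.39 to 4.81% in DMSO and 8.56 to 9.53% in GNF-7. HERPUD1 reads were 6.89 to 7.24% against 12.04 to 12.7% at 6 h, and 7.14 to 7.58% against 9.80 to 10.4% at 24 h. Each GNF-7 library was above each DMSO library for both genes, and XBP1 gained on HSPA5 by a log2 ratio of 1.04 at 6 h and 0.97 at 24 h. SDF2L1 went the other way, from 1.23 to 1.26% down to 0.648 to 0.851% at 6 h and from 1.44 to 1.69% down to 0.475 to 0.652% at 24 h. With senescence, XBP1 fell further than HSPA5 (6.29 to 6.79% in cycling cells), and ERN1 reads went from 0.571 to 0.604% to 1.45 to 1.67% of HSPA5 reads. ATF6 and ATF6B lost on HSPA5 in GNF-7. ATF6 reads were 9.78 to 10.3% of HSPA5 reads in DMSO and 8.57 to 9.21% in GNF-7 at 6 h, and 9.77 to 10.6% against 6.92 to 7.61% at 24 h. ATF6B reads were 10.6 to 11.7% against 9.60 to 10.4% at 6 h and 11.9 to 12.8% against 8.19 to 9.18% at 24 h. DNAJB9 reads overlapped at 6 h (3.34 to 3.55% against 2.89 to 3.42%) and were apart at 24 h, lower in GNF-7 (3.05% on average against 3.68%). The ratios of these 7 genes are a description without a test, made after the directions were known.

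**Figure D4:**
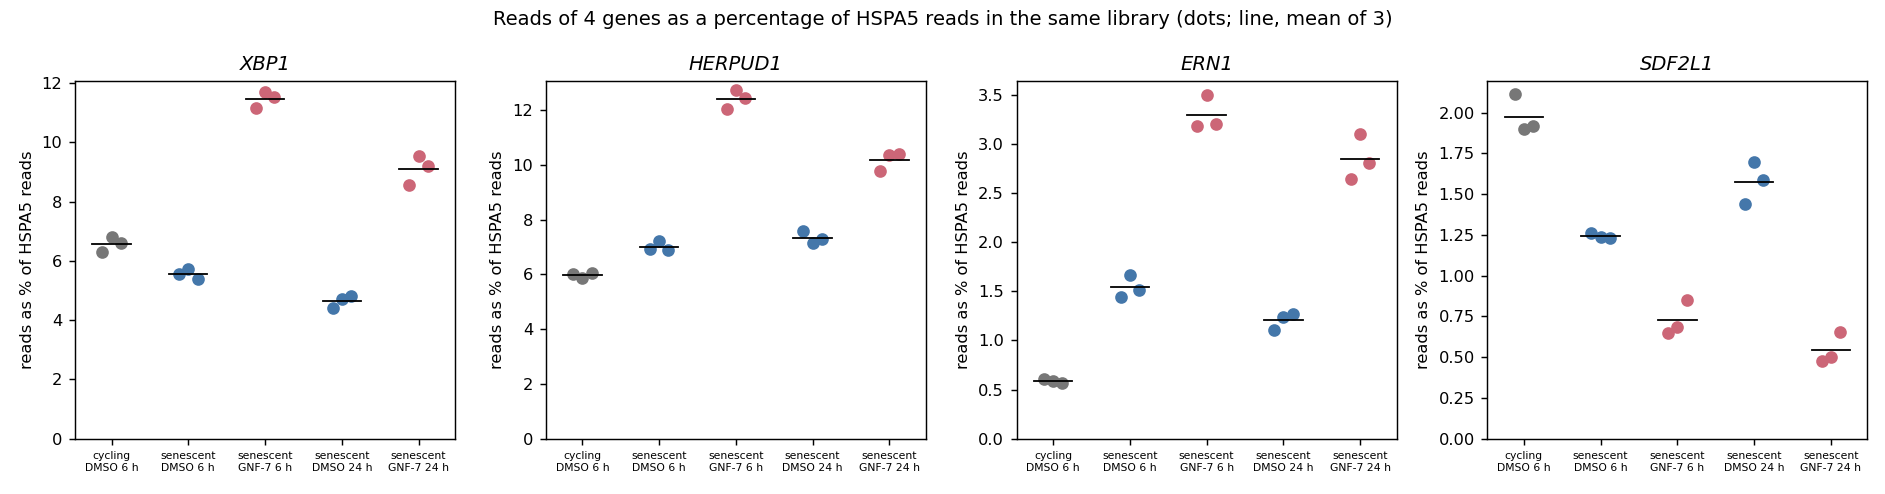
Reads of XBP1, HERPUD1, ERN1 and SDF2L1 as a percentage of the HSPA5 reads of the same library (vertical axes, from 0), by group (horizontal axes); dots are libraries and lines the mean of 3. XBP1, HERPUD1 and ERN1 gain on HSPA5 in GNF-7 at both times, and SDF2L1 loses, from 1.24% on average to 0.727% at 6 h and from 1.57% to 0.543% at 24 h.

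Members with an exact ERSE or ERSE-II match and members with neither both went either way, in unlike proportions. Of the 10 members with an ERSE or ERSE-II before their start, 5 were higher in GNF-7 at 24 h (XBP1, HSPA5, HYOU1, ERO1B and HERPUD1) and 5 lower (CALR, CANX, HSP90B1, SDF2L1 and CRELD2). Of the 25 members with a promoter entry and no exact match to either element, 2 were higher and 19 lower. Of all genes tested, 29.3% were called higher and 29.7% lower at 24 h. The median log2 fold changes were -0.006 for the 10 and -0.433 for the 25. At 6 h the split was 3 higher and 6 lower among the 10, and 1 higher and 17 lower among the 25 (17.9% of all genes higher and 21.4% lower). With senescence, 2 of the 10 were higher and 8 lower, and 13 of the 25 higher and 9 lower (35.6% of all genes higher and 34.4% lower). These counts and medians are a description without a test, made after the directions were known.

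Other genes of the system were taken from 7 lists of 104 genes. One list held the PERK arm and effectors of the integrated stress response, the response to eIF2 phosphorylation. Of its 8 genes, 7 were higher with GNF-7 at both times (17.9% of all genes tested at 6 h and 29.3% at 24 h). The exception was EIF2AK3, which encodes PERK itself. GCN2 also acts on eIF2, so these effectors are not particular to PERK, and which eIF2 kinase acted was not tested. EIF2AK3 was at 25.1, 21.2 and 24.0 CPM in DMSO and at 19.4, 17.4 and 19.4 CPM in GNF-7 at 6 h, and at 21.2, 14.95 and 16.8 CPM against 10.8, 8.77 and 10.3 CPM at 24 h. It was lower without overlap at both times, with log2 fold changes of -0.32 and -0.83 (edgeR adjusted p = 0.00387 and 5.28e-10). ATF4, the factor translated when eIF2 is phosphorylated, was at 174 to 189 CPM in DMSO and 429 to 440 CPM in GNF-7 at 6 h, and at 187 to 195 CPM against 599 to 618 CPM at 24 h. DDIT3 (CHOP), its target, was at 23.2 to 23.8 CPM against 152 to 157 CPM at 6 h and at 21.7 to 25.1 CPM against 188 to 192 CPM at 24 h. CHAC1 and ASNS, also ATF4 targets, had the largest log2 fold changes of that list at 24 h, 4.05 and 3.49. Among the ER sensors, ERN1 was thus higher in GNF-7, EIF2AK3 lower, and ATF6 overlapped DMSO at both times.

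The counts that follow for other ER genes stand against 21.4% of all genes tested called lower and 17.9% higher with GNF-7 at 6 h, and 29.7% lower and 29.3% higher at 24 h. Calls were more frequent among genes with a mean of at least 5 CPM. Fitted alone, 53.78% of these were called in either direction at 6 h, 72.48% at 24 h and 81.99% in senescence. The list counts were not repeated in that fit. Of the 15 other translocon, signal peptidase and signal recognition receptor genes, 12 fell and 1 rose at 6 h, and 13 fell and 1 rose at 24 h, led at 24 h by SSR3 and SPCS3 (both -0.98). Of the 17 genes of oligosaccharyl transfer and glucose trimming, 14 fell at each time and 2 rose at 24 h, with RPN1 at -0.85. Of the 20 other ERAD genes, 14 fell and 1 rose at 6 h and 16 fell at 24 h, and VCP, the ATPase that pulls ERAD clients out of the membrane, fell by 0.59 and 0.98. Of the 19 other isomerases tested, 11 fell and 2 rose at 6 h, and 15 fell and 3 rose at 24 h, with FKBP14 at -1.38. Of the 15 genes of the COPII coat and KDEL receptors, which return chaperones to the ER, 13 fell and none rose at each time, and KDELR2 was at -0.74 at 24 h. Of the 9 site proteases and CREB3 and NFY factors, 5 fell and 3 rose at 6 h, and 7 fell and 2 rose at 24 h. MBTPS1, the site-1 protease that cuts ATF6, was at -0.45 at 24 h. In senescence, where 35.6% of all genes were called higher and 34.4% lower, 5 of the 20 ERAD genes were higher and 12 lower. Of the 15 COPII and KDEL receptor genes 6 were higher and 8 lower, and KDELR3 rose by 1.37.

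Of 9746 genes with a mean of at least 10 CPM, those whose log2 CPM followed XBP1 most closely over the 15 libraries were SLC1A4, an amino acid transporter (Pearson r = 0.993), KCNG1 (0.987) and DOCK9 (0.983). For HERPUD1 they were DDIT4, a stress-induced inhibitor of mTORC1 (0.987), TMEM268 (0.982) and SMG6 (0.980). For HSPA5 they were TIMM9, CCNI and BTF3L4, at 0.970, 0.965 and 0.964. The correlations describe 5 group levels more than 15 separate libraries.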

How the data were processed

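The deposited values are raw read counts per Ensembl gene for 15 libraries, made by the authors with STAR 2.7.9a, featureCounts 1.5.1 and bcl2fastq 2.20.0.422 on GRCh38, per the submitters' processing notes; the annotation release and the strand setting are not given in the sources used here. Of 60673 lines, 3 were left out (1 gene entry, that of ANK2, broken over lines). Symbols matched 60400 of 60670 identifiers. Gene positions and exon lengths are from GENCODE 29 (58452 identifiers matched). Genes kept by filterByExpr (18563) were fitted in 1 model of 5 groups with edgeR 4.0.16 (quasi-likelihood, TMM, robust; R 4.3.3), with Benjamini-Hochberg adjustment over all of them; biological variation was 4.64%. The smallest library held 25991007 counts. Of the members tested, counting error is relatively largest for FKBP2 (16 reads in its lowest library), SDF2L1 (187), ERN1 (208) and ERO1B (273). The members, lists and tests were chosen with earlier results of these data known. Every library is given for XBP1, ERN1, ATF6, ATF6B, HERPUD1, HSPA5 and for the 2 largest rises and falls called in each contrast; other lists name at most 2 genes. Alternatives were DESeq2 1.42.0, limma 3.58.1 (voom), other scalings and filters, a replicate block, and each library left out. The fit was tested on simulated data. Protein sequences were not used here.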

Additional observations from a re-analysis of the deposited data

Results flagged for a closer look

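The GNF-7 effect on 21 members differed between 24 h and 6 h by the edgeR interaction test, and each value below is the log2 effect at 24 h minus that at 6 h. It was positive for ERO1B (0.50), ERN1 (0.37), HYOU1 (0.36), SEL1L (0.25) and HSPA5 (0.22). Among chaperones and partners it was negative for HSP90B1 (-0.66), CRELD2 (-0.59), SDF2L1 (-0.53), MANF (-0.39), SIL1 (-0.36) and DNAJB11 (-0.29). Among lectins, isomerases and oxidoreductases it was negative for CALR (-0.79), PDIA4 (-0.58), PPIB (-0.56), PDIA3 (-0.54), PDIA6 (-0.40), ERO1A (-0.37) and P4HB (-0.23). It was also negative for EDEM2 (-0.37), SSR1 (-0.31) and DERL1 (-0.19), and the call of DERL1 was lost in 8 alternatives. For HYOU1 alone of these was the effect called lower at 6 h (-0.16) and higher at 24 h (0.20). Both effects rest on separate DMSO libraries, 3 at each time. For ERN1 and SEL1L the TMM-scaled GNF-7 means were nearly level between the times, while DMSO was lower at 24 h. GNF-7 at 24 h against 6 h was not tested.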

How the results depend on the processing

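Across the 190 single-member results, 2900 alternative values kept direction and side of the threshold, 80 lost the call, 54 gained it and 39 changed sign, all 39 for values that had not passed. Of the 39, 1 passed in the new direction (SSR1 in senescence with the 5 CPM filter, edgeR adjusted p = 0.0338). In senescence, total counts and then the 5 CPM filter gave 0.062 and 0.08 for EDEM3, 0.078 and 0.096 for SSR1, 0.055 and 0.073 for DERL1, and 0.047 and 0.065 for DERL2. At 6 h of GNF-7 that filter gave 0.008 for ATF6B and 0.015 for both DNAJB9 and SYVN1, and at 24 h 0.071 for EDEM1 and 0.019 for DERL1. As single libraries were left out, values at 6 h ran from -0.079 to 0.01 for ATF6B (highest without DMSO 6 h replicate 1), -0.107 to 0.024 for DNAJB9 (without GNF-7 6 h replicate 2) and -0.081 to 0.026 for SYVN1 (without DMSO 6 h replicate 1). At 24 h they ran from -0.069 to 0.011 for EDEM1 (without GNF-7 24 h replicate 2) and, lowest without DMSO 24 h replicate 2, from -0.037 to 0.107 for DNAJB9. For the interaction they ran from -0.135 to 0.011 for DERL2, -0.088 to 0 for DNAJC3 and -0.125 to 0 for ATF6. For vehicle at 24 h against 6 h, total counts gave ATF6B -0.006, DNAJB9 -0.052, PDIA4 -0.069, OS9 -0.018, PDIA3 -0.009, HERPUD1 -0.08 and CRELD2 0, and the 5 CPM filter CANX 0.002. There, leaving out single libraries gave PDIA4 -0.006 to 0.094, HERPUD1 -0.042 to 0.097, CANX -0.038 to 0.02, DNAJB11 -0.074 to 0.041, DERL1 -0.082 to 0.006 and HSPA5 -0.084 to 0.01. Calls gained at 6 h of GNF-7 were those of DERL1 and SEL1L, and at 24 h those of DNAJB9 and SYVN1 with the 5 CPM filter. The cause of these changes was not tested.

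In that vehicle comparison, total counts gave 2 members higher and 16 lower. Leaving out 1 library gave 4 to 14 higher, with 4 without DMSO 6 h replicate 2 and 5 without DMSO 24 h replicate 1, and 5 to 8 lower, with 5 without DMSO 24 h replicate 2. With total counts, all genes had a median of 0.20 in place of 0.06 in senescence and of -0.10 in place of 0.01 in the vehicle comparison, and the 5 CPM filter moved that of the genes it kept from -0.15 to -0.001 in senescence, where the member median became 0.07. The SIL1 call at 6 h of GNF-7 (-0.14) was lost under 11 alternatives.

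With the replicate block, members higher and lower were 16 and 18 in senescence, 5 and 26 at 6 h, 7 and 26 at 24 h, 5 and 17 for the interaction and 13 and 8 for vehicle. Same-numbered libraries of 2 groups had correlated deviations over 0.1 in 12 of 18 pairs among the senescent groups, against 1 of 36 pairs with other numbers, and in none of the pairs with cycling cells. In no comparison did all 3 pairs exceed it (the lowest was -0.052 at 6 h, 0.073 at 24 h, -0.06 for vehicle and -0.079 for senescence), though all 3 did between GNF-7 at 6 h and at 24 h (lowest 0.11). At 24 h of GNF-7 against DMSO each of the 6 libraries correlated best with its own number. The same held between GNF-7 at 6 h and either group at 24 h. For DMSO at 6 h it held for 4 of 6 libraries with GNF-7 at 6 h, 4 of 6 with DMSO at 24 h and 2 of 6 with GNF-7 at 24 h. This is a hint of pairing among senescent groups that the labels do not state, and the block was kept as an alternative. FKBP2, at about 1 CPM, had intervals over 1 log2 unit wide, and DERL3 shares 2923 of its 3796 exon bases with SMARCB1 on the other strand. The other counts of members and of all genes called stayed within 1.5 times of their values above.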
